A study of Drosophila melanogaster with 16 samples.

Results

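The earliest sampled response of whole Drosophila melanogaster larvae to a high-sugar diet was described from larvae after 4 h on that diet, set against larvae kept on a low-sugar diet. The members were chosen by their labels, the per-library columns HSD 4 h and LSD 8 h of the deposited table, and gave 7 of the 14 libraries with values. The 3 libraries of the high-sugar diet (HSD, 10% yeast with 15% sucrose) were taken 4 h after transfer, and the 4 libraries of the low-sugar diet (LSD, 10% yeast) were taken 8 h after transfer. Diet and time on the plate therefore differ together, and neither can be told apart from the other in this comparison. HSD 4 h replicate 2 is marked in the labels as a removed outlier and was not analysed here. All larvae carried the genotype WT, had spent 24 h on LSD plates from the first instar, and were early in the second instar at transfer. All plates after transfer held a blue dye and feeding larvae were taken, so each library stands for a pool of whole animals whose number the labels do not state. No strain is named, and no label ties a library to a separate culture, so the tests measure the spread between these libraries, which may be technical. HSD libraries taken at 8 h (n = 3 with values, of 4 labelled) served to set the 4 h values beside a later time on HSD. With the HSD libraries taken at 16 h (n = 4), they also entered the fit and its estimate of the spread.

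Sugar enters larval metabolism through digestion to glucose and fructose, and the intracellular sensor is the transcription factor pair Mondo and Mlx (encoded by bigmax), which binds target genes when phosphorylated sugars accumulate. Its known targets include the transcription factor genes sugarbabe (sug) and cabut (cbt), the activin-like ligand gene dawdle (daw), and genes that make fatty acids or run the pentose phosphate route. Growth in the larva is paced by insulin and TOR signaling, which set ribosome production, while starvation factors such as FOXO oppose it.

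The 7 libraries held 16300308 to 25284073 counted reads, and a count of 3 reads equals 0.117 to 0.182 on the scale of the table. That scale is the read count over the effective size of the library as the authors set it, called the normalised read count here. Across genes, libraries of 1 group correlated at Pearson's r of 0.976 to 0.991 (9 pairs), and no pair was so alike that it could be 1 library deposited again (chi-square 22.1 to 102 for each degree of freedom). The first principal component held 48.6% of the variance, with HSD 4 h libraries at -28.7 to -20.8 and LSD libraries at 3.64 to 30.6. Libraries LSD 2 and LSD 3 stood apart in cuticle transcripts. The stage gene TwdlJ, a cuticle protein gene, lay at 0.89, 0.414 and 0 in HSD 4 h replicates 1, 3 and 4, against 0.938, 17.4, 33.6 and 0.727 in LSD replicates 1 to 4. The labels record no molt stage, and the counts below were also made without LSD replicates 2 and 3. In whole animals, fewer cells of a type and less RNA per cell cannot be told apart.

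At 4 h of HSD, 1293 genes were higher and 1157 lower than in LSD among 9987 genes tested, which is 24.5% of them (12.9% higher and 11.6% lower). Counts of list members called below are to be read beside these shares. A gene was called at an adjusted p below 0.05 from limma, with all 14 libraries in the fit and Benjamini-Hochberg adjustment over all genes tested. Most differences were small: the median size among called genes was 1.37-fold, and 168 genes (1.68%) were higher and 183 (1.83%) lower by at least 2-fold. In 2908 genes (29.1%) all libraries of one group lay above all of the other, and the median log2 difference of all genes was 0.01. Fewer genes passed when only the 7 libraries entered the fit, 643 higher and 776 lower, so the share of higher calls was 45.3% there, against 52.8% as reported. Differences are log2(value + 0.5) differences, HSD 4 h minus LSD 8 h, with their SE, and folds are those differences turned back to ratios, which understate the change of low genes. Library values are listed by replicate number, 1, 3 and 4 for HSD 4 h and 1 to 4 for LSD.

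**Figure D1:**
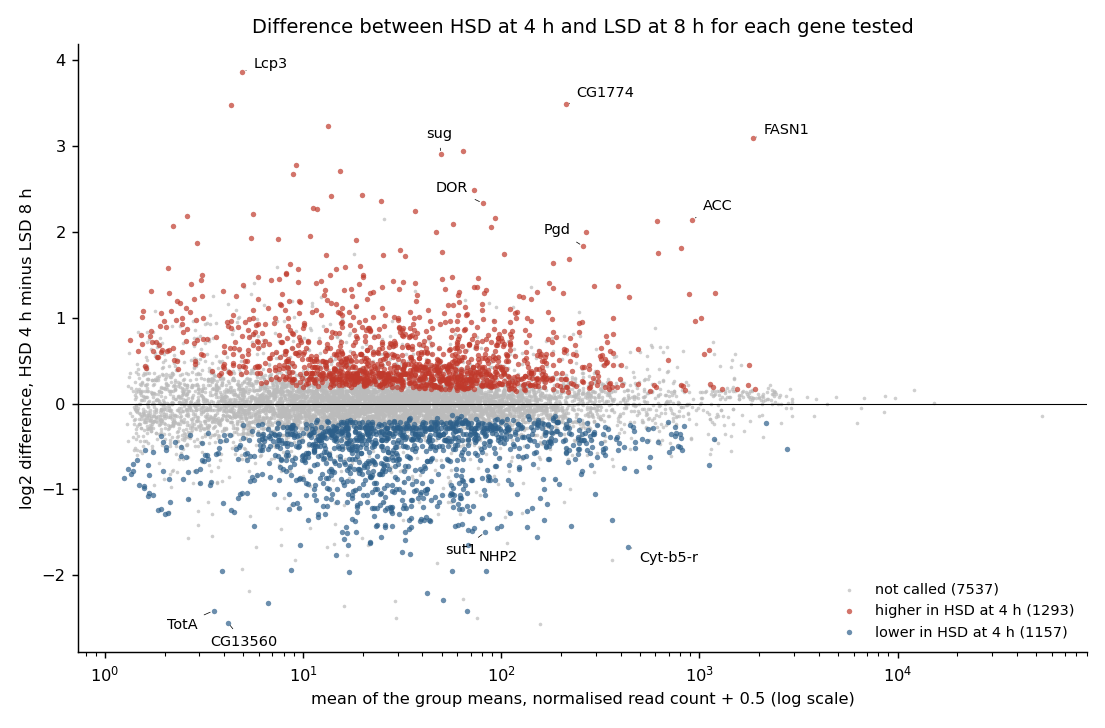
Each point is 1 of 9987 genes, with the mean of both groups' mean normalised read counts plus 0.5 on a log axis and the log2 difference, HSD 4 h minus LSD 8 h, on the vertical axis. Red points (1293) were called higher and blue points (1157) lower in HSD at 4 h, and FASN1 stands out as both abundant and far from 0 with a log2 difference of 3.09.

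Genes of the sugar sensor and its target factors were among those that rose. Sugarbabe (sug, FBgn0033782, BDGP6.54 2R 12924567 to 12930644), a zinc finger transcription factor gene, had 94.6, 90.4 and 75.3 normalised read counts in HSD at 4 h, against 10.7, 12.9, 10.1 and 11.1 in LSD. Every HSD library was far above every LSD library, a 7.45-fold difference (log2 2.90, SE 0.10, adjusted p = 3.83e-09, limma). Cabut (cbt, FBgn0043364), a repressor gene of the Krüppel-like family, had 120, 122 and 106 in HSD at 4 h, against 42.7, 55.6, 42 and 48.9 in LSD (2.45-fold, adjusted p = 1.74e-06, limma). Mondo (FBgn0032940) was higher by 1.49-fold, at 187, 200 and 179 in HSD at 4 h, against 119, 141, 115 and 133 in LSD (adjusted p = 0.000103, limma). Its partner gene bigmax (FBgn0039509) was higher by 1.84-fold, at 32.1, 25.4 and 23.7 in HSD at 4 h, against 13.7, 13.1, 13.5 and 17.8 in LSD. The groups did not overlap in any of these 4 genes.

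Among 18 tested regulators of sugar and nutrient responses, 5 rose, 2 fell and 11 were not called, with a median log2 difference of 0.23. The fifth that rose was daw (FBgn0031461), at 50.4, 47 and 40.9 in HSD at 4 h, against 14.5, 19.6, 15.6 and 18.8 in LSD (2.66-fold, adjusted p = 1.58e-06, limma). The falls were spargel (srl), the fly homologue of the coactivator PGC-1, by 1.83-fold, and foxo, the insulin-opposed transcription factor gene, by 1.27-fold. Clockwork orange (cwo, FBgn0259938, 3R 10388258 to 10400752), a clock repressor gene, was not called: it had 87.2, 101 and 92.2 in HSD at 4 h, against 72.4, 89.3, 73.6 and 80.3 in LSD, with overlapping groups (log2 0.25, SE 0.09, adjusted p = 0.0662, limma; 0.0215 to 0.233 over the alternatives). It was called with array weights (0.0266) and when LSD replicate 2 was left out (0.0215). Of 11 clock genes tested, 0 were called in either direction, and 3627 of all genes had an unadjusted p below 0.05. SREBP, the lipogenic factor gene, Hnf4 and crp were also not called. The annotation places sug over CG13319 on the same strand, cbt over ush and bigmax over CG3368, and whether the counting used strand is not stated in the labels. CG13319 itself was at 18, 18.7 and 16.1 in HSD at 4 h, against 11.9, 11, 11.3 and 11.1 in LSD, so it rose 1.53-fold, while ush and CG3368 were not called.

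Several enzyme genes on the path from acetyl-CoA to fatty acids rose by 2-fold or more. Fatty acid synthase 1 (FASN1, FBgn0283427, 2L 3056598 to 3068177) had 3053, 3973 and 2939 normalised read counts in HSD at 4 h, against 391, 412, 287 and 479 in LSD. This is an 8.53-fold difference, with no overlap (log2 3.09, SE 0.16, adjusted p = 7.51e-08, limma). Acetyl-CoA carboxylase (ACC), which makes malonyl-CoA for that synthase, had 1479, 1700 and 1310 in HSD at 4 h, against 310, 422, 275 and 359 in LSD (4.41-fold). Acetyl-CoA synthase (AcCoAS, FBgn0012034) had 950, 1090 and 949 in HSD at 4 h, against 192, 258, 261 and 212 in LSD (4.33-fold). ATP citrate lyase (ATPCL), which supplies cytosolic acetyl-CoA from citrate, rose 2.00-fold, and the fatty acid desaturase gene Desat1 rose 3.52-fold, with means of 1251 ± 120 in HSD at 4 h and 356 ± 36.3 in LSD (SD, n = 3 and n = 4).

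Of the genes that place fatty acids on glycerol or coat lipid droplets, fu12, Lsd-1 and Lpin rose and the others in the list were not called. The acyltransferase gene fu12 (Agpat2, FBgn0026718) had 94.4, 96.4 and 83.6 in HSD at 4 h, against 19.7, 23.2, 18.7 and 23 in LSD (4.26-fold, adjusted p = 8.49e-09, limma). Lsd-1, a perilipin gene of the lipid droplet surface, had 269, 266 and 289 in HSD at 4 h, against 88.2, 103, 83.1 and 81.5 in LSD (3.09-fold). The phosphatidate phosphatase gene Lpin rose 1.28-fold, and minotaur (mino), a glycerol-3-phosphate acyltransferase gene outside the list and chosen after its values were seen, rose 2.36-fold. The list for fatty acids and triglycerides held 22 tested genes, of which 8 rose, 7 of them by at least 2-fold, and 0 fell, with a median log2 difference of 0.24. The 14 not called included FASN2, FASN3, SREBP, SCAP and the elongase gene Baldspot (log2 0.05). They also included the diacylglycerol acyltransferase gene mdy (log2 0.26, adjusted p = 0.279, limma), the second droplet coat gene Lsd-2 (0.10) and the acyltransferase genes CG3209 (0.30), CG1942 (0.63), CG3812 (0.04) and CG4729 (0.07).

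All 8 tested genes of the pentose phosphate pathway and malic enzyme, which supply NADPH for fatty acid synthesis, were higher, with a median log2 difference of 0.72 and no overlap in any of the 8. Pgd (FBgn0004654, X 2145136 to 2148566), the phosphogluconate dehydrogenase gene, had 379, 409 and 422 in HSD at 4 h, against 105, 120, 115 and 113 in LSD (3.55-fold, SE of the log2 difference 0.06, adjusted p = 3.83e-09, limma). Zw (FBgn0004057), glucose-6-phosphate dehydrogenase, had 154, 165 and 158 in HSD at 4 h, against 41.6, 55.3, 49.8 and 43.1 in LSD (3.35-fold). Both oxidative dehydrogenase genes thus lay more than 3-fold higher, while CG17333, which encodes the lactonase of the step between, rose 1.56-fold. In the non-oxidative branch the transketolase gene CG8036 rose 2.41-fold, transaldolase (Taldo) 1.75-fold, Rpi 1.29-fold and CG30499 1.14-fold. Malic enzyme (Men) had 1338, 1392 and 1342 in HSD at 4 h, against 823, 992, 868 and 861 in LSD (1.53-fold).

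Most genes of core glycolysis were not called. Of 16 tested genes of glycolysis and the glycerol-3-phosphate shuttle, 5 rose and 1 fell, with a median log2 difference of 0.06. Glycerol-3-phosphate dehydrogenase (Gpdh) had 1535, 1835 and 1694 in HSD at 4 h, against 586, 852, 697 and 665 in LSD (2.43-fold), and its mitochondrial counterpart Gpo-1 had 567, 649 and 638 in HSD at 4 h, against 259, 298, 243 and 249 in LSD (2.36-fold). Pfrx, the bifunctional enzyme that sets fructose-2,6-bisphosphate, rose 1.93-fold and Pgi 1.42-fold. Pyruvate kinase (PyK) had 1256, 1251 and 1288 in HSD at 4 h, against 789, 857, 886 and 849 in LSD. Lactate dehydrogenase (ImpL3) fell, at 471, 488 and 617 in HSD at 4 h, against 729, 673, 790 and 657 in LSD. Hex-A, Hex-C, Pfk, Ald, Tpi, both Gapdh genes, Pgk, Pglym78 and Eno were not called, with log2 differences of -0.16 to 0.08.

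**Figure D2:**
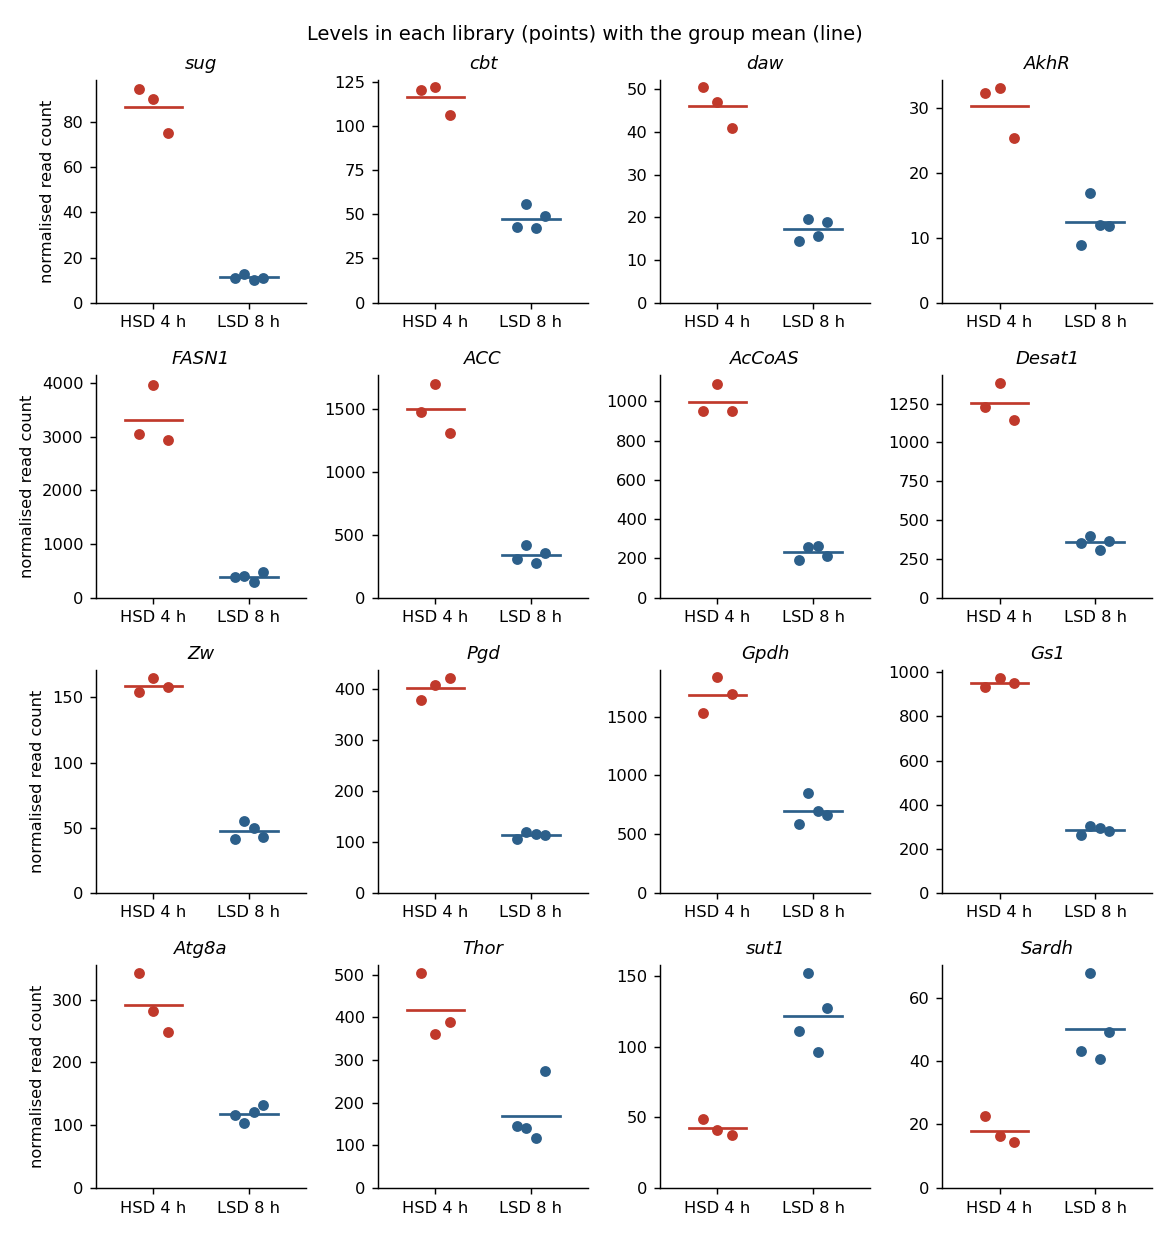
Normalised read counts of 16 genes in each library (points) of HSD at 4 h (red, n = 3) and LSD at 8 h (blue, n = 4), with the group mean as a line and axes from 0. Points of both groups do not overlap in any panel; sug, at 75.3 to 94.6 in HSD and 10.1 to 12.9 in LSD, and FASN1 are far apart, and sut1 and Sardh are lower in HSD.

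Genes that handle trehalose, the blood sugar of insects, and glycogen were mostly higher. Of 13 tested, 8 rose and 1 fell, with a median log2 difference of 0.22. CG5171, annotated as a trehalose phosphatase gene, had 53.7, 50.1 and 37.8 in HSD at 4 h, against 12.4, 17.5, 11.2 and 12.7 in LSD (3.43-fold, adjusted p = 4.42e-06, limma). Trehalose-6-phosphate synthase (Tps1) rose 1.93-fold, and the trehalose transporter gene Tret1-1 rose 2.31-fold, at 217, 196 and 173 in HSD at 4 h, against 75.3, 101, 66 and 98.9 in LSD. The glycogen branching enzyme gene AGBE rose 1.94-fold, while glycogen synthase (GlyS) and trehalase (Treh) were not called (log2 0.02 and -0.34). Gbs-70E, which encodes a glycogen-binding subunit of protein phosphatase 1 and lies outside the list, had 147, 158 and 147 in HSD at 4 h, against 32.7, 29.4, 39.6 and 32.6 in LSD (4.46-fold). It was chosen after its values were seen.

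Sugar transporters divided. Of 12 tested, 4 rose and 2 fell (median -0.09). The largest difference was the fall of sut1, at 48.9, 41.2 and 37.1 in HSD at 4 h, against 111, 152, 96.5 and 127 in LSD (2.82-fold lower, adjusted p = 1.17e-05, limma), and CG10960 (nebu) also fell, by 1.70-fold. Besides Tret1-1, the rises were CG6484 (2.23-fold), CG1208 (2.06-fold) and CG1213 (1.65-fold), the last 2 with groups that overlapped. When the fit held only the 7 libraries, 2 of the 12 rose. Of 4 gluconeogenic genes, 1 was called: CG10924 (Pepck2), a phosphoenolpyruvate carboxykinase gene, fell to 29.7, 30.6 and 23.8 in HSD at 4 h, against 36.8, 40, 60.9 and 56.3 in LSD (1.69-fold lower).

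Digestive enzyme genes varied widely between libraries of 1 group, and few were called. Of 21 carbohydrate digestion genes 1 was called, the maltase gene Mal-B2 (1.29-fold higher, adjusted p = 0.0447, limma; 0.0114 to 0.185 over the alternatives), with overlapping groups. The amylase genes Amy-p, Amy-d and Amyrel and maltases A1 to A8 were not. The summed level of this list was 896 to 1877 in HSD at 4 h, against 536 to 1584 in LSD. Of 28 gut serine protease genes 4 rose and 0 fell (median 0.46), among them lambdaTry at 27.4, 82.3 and 37.7 in HSD at 4 h, against 9.73, 20.2, 5.67 and 25.6 in LSD, and iotaTry at 17.7, 27.2 and 18.3 in HSD at 4 h, against 3.87, 12.7, 5.46 and 7.09 in LSD. The median level of the protease list lay 1.17 above the LSD mean (log2) in HSD 4 h replicate 3 and 0.58 above it in LSD replicate 2. Without HSD 4 h replicate 3, 2 of the 28 rose and 3 fell, and lambdaTry was not called (log2 1.26, adjusted p = 0.0732, limma; 1.71 as reported). Without LSD replicate 2, 5 rose. With only the 7 libraries in the fit, 1 rose. Of 15 gut lipase genes 2 rose and 3 fell.

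Some genes, such as daw and Thor, are counted in 2 lists. Of 15 tested genes of activin and TGF-beta signaling, 5 rose and 0 fell (median 0.18), but daw was the only one above 1.5-fold. The ligand genes myo and gbb rose 1.34-fold and 1.20-fold, and the receptor genes sax and wit rose 1.24-fold and 1.25-fold. The ligand gene Actbeta and the receptor genes babo and put were not called (log2 -0.12, -0.01 and 0.05). Without LSD replicates 2 and 3, or with only the 7 libraries in the fit, 3 rose.

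In insulin, adipokinetic hormone (AKH) and FOXO signaling, 9 of 23 tested genes rose and 3 fell (median 0.12), and 4 rose in the fit of only the 7 libraries and also without LSD replicates 2 and 3. The AKH receptor gene (AkhR), which acts in fat body mobilisation, had 32.3, 33.1 and 25.4 in HSD at 4 h, against 8.83, 16.9, 12 and 11.8 in LSD (2.43-fold, adjusted p = 9.18e-05, limma). The nutrient-dependent peptide gene CCHa2 had 78.3, 95.2 and 80.5 in HSD at 4 h, against 33.1, 49.4, 32.3 and 28.3 in LSD (2.39-fold). Thor, the 4E-BP gene that binds eIF4E and restrains translation, had 503, 361 and 389 in HSD at 4 h, against 144, 140, 118 and 274 in LSD (2.59-fold, adjusted p = 0.00142, limma). LSD replicate 4 is well above its group in Thor, yet below every HSD library. InR, Lnk and Pi3K92E rose by 1.20-fold to 1.39-fold, the insulin-like peptide gene Ilp6 rose 1.44-fold, and Ilp2, Ilp5, Akh and ImpL2 were not called. The lipase gene brummer (bmm), which releases stored fat, fell to 20.8, 21 and 16.5 in HSD at 4 h, against 34.8, 30.9, 22.2 and 43.5 in LSD (1.64-fold lower). The peptide gene limostatin (Lst) fell 1.65-fold, with groups that overlapped.

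Growth control by TOR and Myc showed calls both ways. Of 17 tested genes, 5 rose and 3 fell (median 0.14). REPTOR-BP, the partner gene of a factor that acts when TOR is low, had 34, 25.8 and 21.3 in HSD at 4 h, against 9.53, 7.44, 9.91 and 13.3 in LSD (2.62-fold, adjusted p = 8.13e-05, limma). Rheb, the TOR activator gene, rose 1.43-fold, and the TOR-restraining sestrin gene (Sesn) rose 1.27-fold. Myc, a transcription factor gene that drives ribosome genes, was 1.40-fold lower (adjusted p = 0.0131, limma). It had 48.7, 65.1 and 55.8 in HSD at 4 h, against 78.7, 95.7, 70.3 and 71.8 in LSD. Tor and S6k fell by 1.22-fold and 1.19-fold, with groups that overlapped. In the fit of only the 7 libraries 3 genes of this list rose and 0 fell.

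Autophagy genes were a family added after the data were seen. Of 19 tested Atg genes, 11 rose and 0 fell (median 0.31), and 9 to 12 rose over the 20 ways of fitting. Atg8a, which encodes the lipid-coupled protein of the autophagosome membrane, had 343, 281 and 248 in HSD at 4 h, against 116, 104, 121 and 132 in LSD (2.44-fold, adjusted p = 3.88e-06, limma). The others rose by 1.20-fold (Atg14) to 1.58-fold (Atg9), and the kinase gene Atg1 was not called (log2 0.14). DOR (TP53INP, FBgn0035542, 3L 4406943 to 4420648), known in the fly as an autophagy and ecdysone coactivator gene, had 168, 114 and 121 in HSD at 4 h, against 21.3, 23.8, 25.8 and 34.6 in LSD (5.02-fold, SE of the log2 difference 0.16, adjusted p = 1.38e-06, limma).

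Genes that build ribosomes fell. The nucleolar and ribosome assembly list held 32 tested genes, and 29 fell, 25 of them by at least 2-fold, while 0 rose, with a median log2 difference of -1.15. Among all genes tested 11.6% were lower. Each of the 20 ways of fitting, the reported one included, gave 29 falls. Per library, the list's median lay at -1.29, -1.09 and -1.16 (log2, relative to the LSD mean of each gene) in HSD at 4 h, against 0.04, 0.17, 0.06 and -0.28 in LSD. LSD replicate 4 was the lowest of its group, and every HSD library was lower still. Nop17l, Non1 and CG4364 were not called (log2 0.16, 0.24 and -0.15).

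Protein genes of both classes of small nucleolar ribonucleoprotein fell. NHP2 (FBgn0029148, 3L 14801328 to 14802168), a core protein gene of the H/ACA particles that guide pseudouridylation, had 32.4, 30.7 and 33.5 in HSD at 4 h, against 109, 115, 108 and 77.7 in LSD (3.11-fold lower, log2 -1.64, SE 0.13, adjusted p = 2.99e-06, limma). Its partners Nop60B, the pseudouridine synthase, and CG7637 (Nop10) were 2.70-fold and 2.83-fold lower. In the C/D particles that guide methylation, nop5 (FBgn0026196) had 89.7, 96 and 90.7 in HSD at 4 h, against 247, 257, 251 and 192 in LSD (2.54-fold lower). The methyltransferase gene Fib was 2.32-fold lower and Nop56 2.71-fold lower. Surf6, pit, mbm and ppan, genes of nucleolar assembly factors, were 2.48-fold to 2.72-fold lower. The histone chaperone genes Nlp and Nph fell less, by 1.26-fold and 1.67-fold. The position of nop5 overlaps x16 and a small nucleolar RNA on the same strand.

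The tested subunit genes of RNA polymerase I, which transcribes ribosomal RNA, were lower. RpI1, its largest subunit gene, had 39.3, 45.1 and 44 in HSD at 4 h, against 92.8, 127, 99.3 and 80 in LSD (2.29-fold lower), RpI135 was 2.42-fold lower and RpI12 2.34-fold lower. The initiation factor gene Tif-IA fell 1.70-fold, and RpIII128 of RNA polymerase III fell 1.53-fold. The small nucleolar RNA host genes, whose introns carry guide RNAs, fell in 7 of 7 (median -1.15). Uhg1 had 13.9, 16.9 and 16.9 in HSD at 4 h, against 45.5, 38.4, 45 and 28.6 in LSD (2.41-fold lower), and Uhg2 had 5.12, 5.47 and 5.47 in HSD at 4 h, against 17.3, 14.2, 18 and 10.1 in LSD. Of 30 annotated small nucleolar RNA genes 22 fell and 0 rose (median -0.80); 14 fell in the fit of only the 7 libraries and 13 without LSD replicates 2 and 3. Their summed level was 27.8 to 30 in HSD at 4 h, against 48.5 to 68.1 in LSD. These RNAs are short, lie inside other genes and have near-identical copies, so reads may be shared with their hosts, and a minimum of 5 in at least 3 libraries left 1 of them to test.

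Genes of transfer RNA charging and of the nuclear pore were lower by up to 1.62-fold. Of 20 tested cytoplasmic aminoacyl-tRNA synthetase genes, 18 fell and 0 rose (median -0.40), from 1.14-fold (AsnRS) to 1.48-fold (ArgRS), with AspRS and TyrRS not called. LeuRS had 97.6, 92.7 and 97.4 in HSD at 4 h, against 138, 146, 127 and 133 in LSD. Of 19 tested nucleoporin genes 15 fell and 0 rose (median -0.40), Nup358 most, at 105, 110 and 115 in HSD at 4 h, against 175, 202, 160 and 180 in LSD (1.62-fold lower). Translation factors fell in 9 of 26 (median -0.10), 5 of 26 in the fit of only the 7 libraries, led by eIF6, a factor of large-subunit maturation, with 42, 47.8 and 42.9 in HSD at 4 h, against 86.7, 82.6, 86.8 and 75.3 in LSD (1.86-fold lower). Counts of the synthetase and nucleoporin genes that fell were 16 to 18 and 15 to 16 over the 20 ways of fitting.

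Most DNA replication genes were lower. Of 21 tested genes of replication and the cell cycle, 16 fell and 0 rose (median -0.57). The ribonucleotide reductase subunit gene RnrS had 55.3, 62.7 and 65.1 in HSD at 4 h, against 115, 112, 110 and 116 in LSD (1.85-fold lower, adjusted p = 5.03e-06, limma). PCNA, the polymerase clamp gene, had 40.4, 44.5 and 45.1 in HSD at 4 h, against 80.8, 66.7, 84.6 and 64.4 in LSD (1.69-fold lower). The helicase genes Mcm2, Mcm3, dpa, Mcm5, Mcm6 and Mcm7 were 1.42-fold to 1.67-fold lower. The mitotic genes CycB, CycB3, Cdk1 and stg were not called, with log2 differences of -0.42 to -0.05.

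Genes of the ribosomal proteins themselves gave 0 falls by limma. Of 85 tested cytoplasmic ribosomal protein genes 10 rose and 0 fell (median 0.11), while 12.9% of all genes tested were higher and 11.6% lower. The summed level of the 85 was 118038 to 132867 in HSD at 4 h, against 111263 to 123719 in LSD. Of the 10, RpS5b and RpS19b, paralogs that are high in the germline, were about 2-fold higher from low levels; RpS5b had 9.35, 6.87 and 5.11 in HSD at 4 h, against 3.01, 4.62, 1.75 and 3.09 in LSD. The other 8 had log2 differences of 0.17 to 0.23. With only the 7 libraries in the fit 2 rose, and the 20 ways of fitting gave 1 to 17. Mitochondrial ribosomal protein genes rose in 4 and fell in 3 of 72, and the rises numbered 0 to 14 over the 20 ways of fitting, with 0 in the fit of only the 7 libraries and 14 without LSD replicate 3. Neither proteasome nor V-ATPase subunit genes gave a call by limma, 0 of 32 and 0 of 22, with medians of -0.01 and 0.17. V-ATPase rises numbered 0 to 5 over the 20 ways of fitting, with 5 without LSD replicate 2. Respiratory chain and ATP synthase genes rose in 13 of 56 and fell in 0 (median 0.15), each by less than 1.25-fold. That count depended on the libraries, at 35 without LSD replicates 2 and 3, at 1 in the fit of only the 7 libraries and at 1 to 39 over the 20 ways of fitting.

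**Figure D3:**
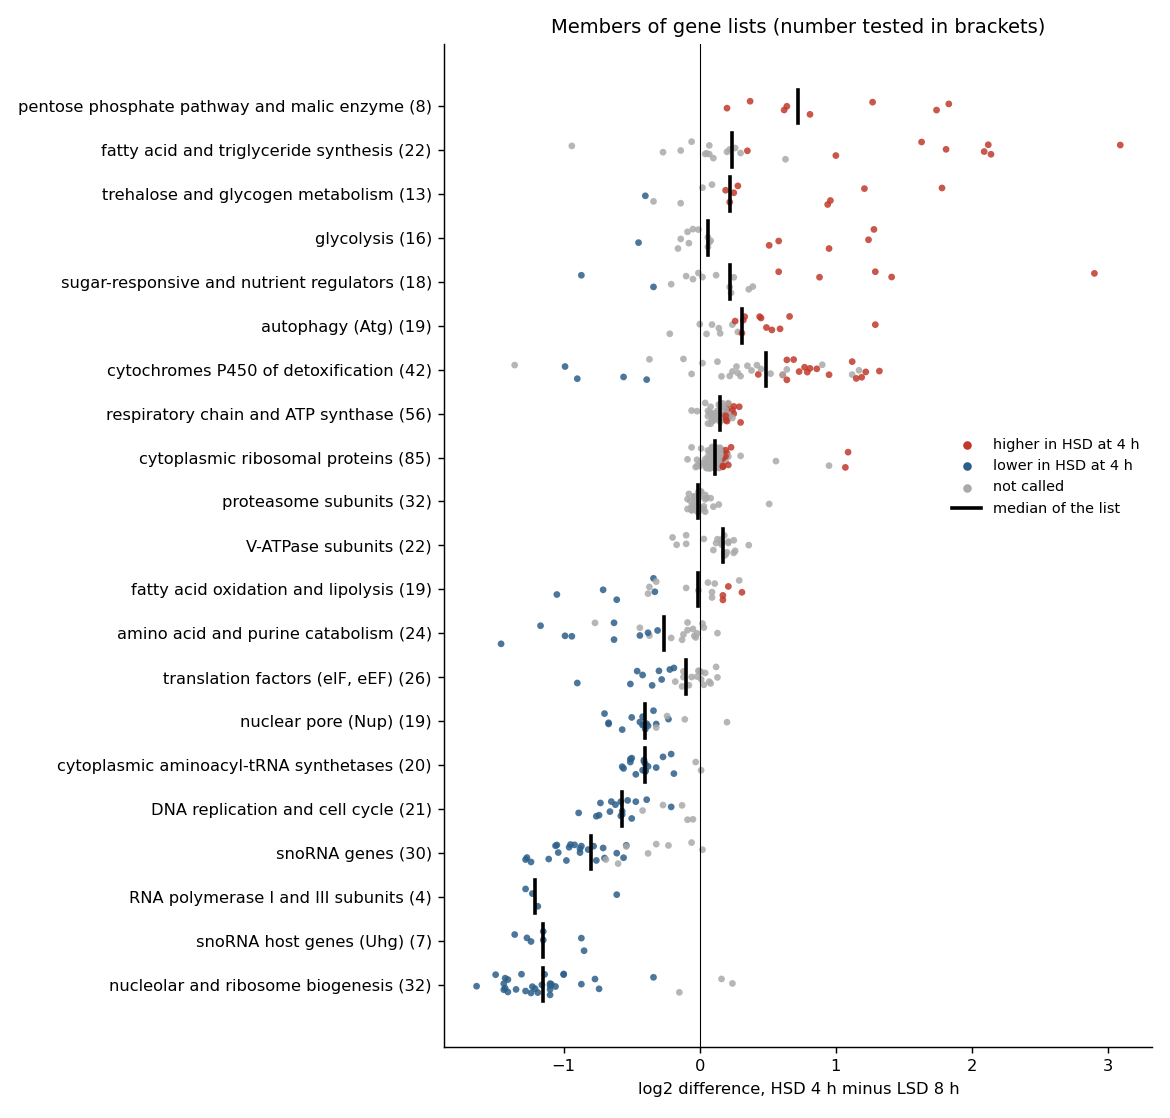
Log2 differences (HSD 4 h minus LSD 8 h) of the members of 21 gene lists, 1 point a gene, with the median of the list as a bar and the number tested in brackets. All 8 points of the pentose phosphate list lie right of 0, 29 of 32 nucleolar genes are called lower around a median of -1.15, and ribosomal protein and proteasome genes cluster near 0.

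**Figure D4:**
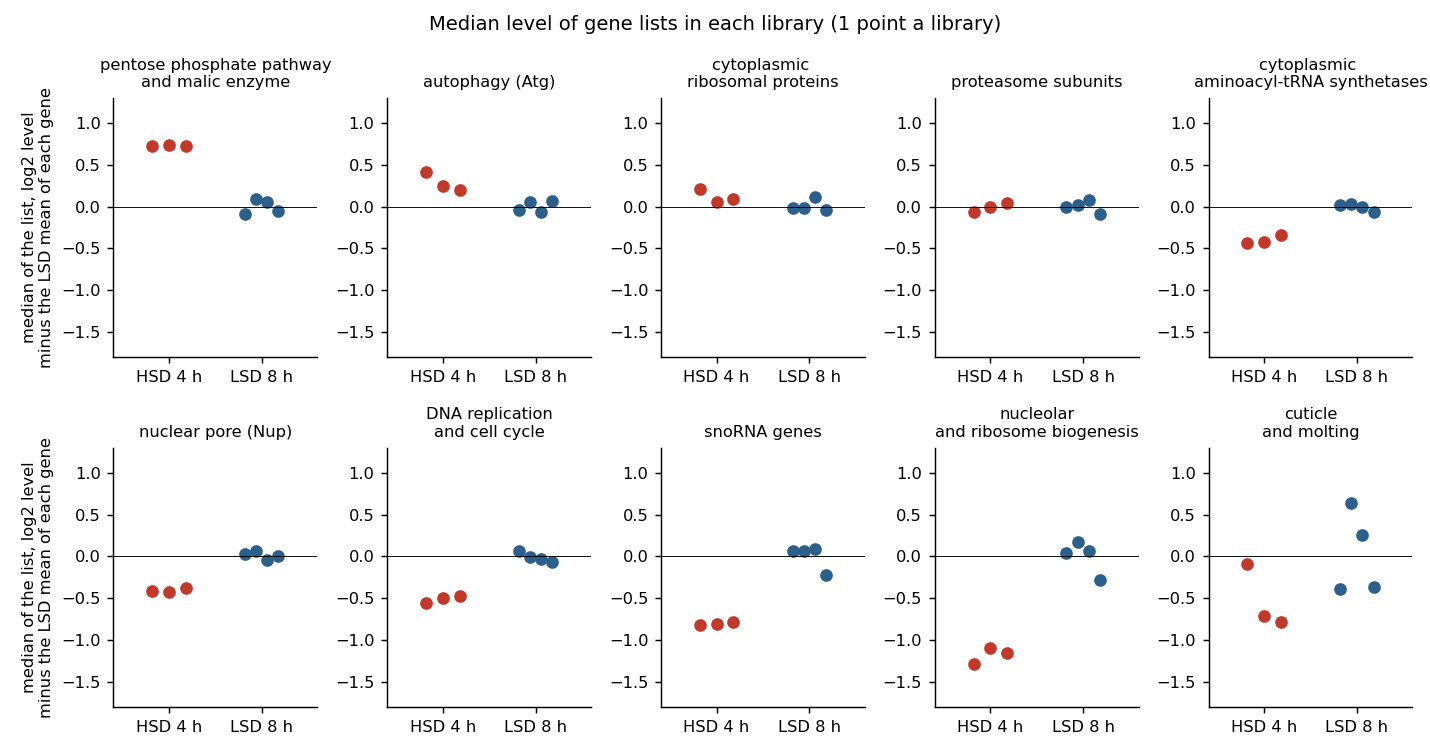
Median over the members of 10 gene lists of the log2 level minus the LSD mean of each gene, 1 point a library, for HSD at 4 h (red, n = 3) and LSD at 8 h (blue, n = 4). The nucleolar list lies at -1.29 to -1.09 in HSD and -0.28 to 0.17 in LSD, whereas in the cuticle list the groups overlap, with LSD replicates 2 and 3 on top.

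Some genes of amino acid breakdown were lower. Of 24 tested genes of amino acid and purine catabolism, 9 fell and 0 rose (median -0.26). Sarcosine dehydrogenase (Sardh, FBgn0034276), a step of one-carbon degradation, had 22.8, 16.3 and 14.4 in HSD at 4 h, against 43.1, 67.6, 40.5 and 49 in LSD (2.75-fold lower, SE of the log2 difference 0.21, adjusted p = 0.000215, limma). CG11796 (Hpd), in tyrosine breakdown, had 80.1, 101 and 138 in HSD at 4 h, against 256, 215, 258 and 209 in LSD (2.25-fold lower). Ornithine aminotransferase (Oat) had 113, 104 and 109 in HSD at 4 h, against 202, 229, 183 and 259 in LSD (1.99-fold lower). The branched-chain aminotransferase gene CG1673 (Bcat) fell 1.54-fold, vermilion (v), the first step of tryptophan breakdown, 1.55-fold and Gnmt 1.92-fold. Glutamate dehydrogenase (Gdh) was not called (log2 0.03).

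Fatty acid oxidation and lipolysis went both ways, with 4 of 19 genes higher and 5 lower (median -0.01). The largest was the fall of CG3902, an acyl-CoA dehydrogenase gene, at 189, 182 and 212 in HSD at 4 h, against 375, 362, 428 and 443 in LSD (2.06-fold lower). The rises, CPT2, Arc42, Etf-QO and wal, were 1.12-fold to 1.24-fold, and 1 of them passed in the fit of only the 7 libraries. The carnitine palmitoyltransferase gene whd was not called (log2 -0.10).

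Genes of glutamine and serine synthesis were among the rises, and some of the one-carbon steps beyond them fell. Glutamine synthetase 1 (Gs1, FBgn0001142, 2L 132077 to 134472) had 932, 975 and 952 in HSD at 4 h, against 261, 305, 292 and 279 in LSD (3.35-fold, SE of the log2 difference 0.07, adjusted p = 1.27e-08, limma). Its annotated position overlaps ND-15 on the same strand. Gs2 rose 1.64-fold, and the serine synthesis genes aay (phosphoserine phosphatase), CG6287 and CG11899 rose 2.00-fold, 1.53-fold and 1.41-fold. The falls were CG3011 (Shmt), Nmdmc, Cbs, Eip55E and Ahcy13, which act in folate and methionine metabolism, by 1.26-fold to 1.57-fold. Of the 15 genes tested, 5 rose and 5 fell (median 0.02), and the other 5 were not called: AsnS, Gclc, Gclm, and the folate and methionine genes pug (log2 -0.17) and Sam-S (-0.40).

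Of the detoxification genes that were called, most were higher. Of 42 tested cytochrome P450 genes 16 rose, 4 fell and 22 were not called (median 0.49). In the fit of only the 7 libraries 8 rose, and 8 to 21 rose over the 20 ways of fitting. The list's median lay at 0.41, 0.71 and 0.28 (log2, relative to the LSD mean of each gene) in HSD at 4 h, against -0.16, 0.23, -0.26 and 0.20 in LSD. Cyp6a9 had 13.5, 15.7 and 9.07 in HSD at 4 h, against 4.65, 5.02, 4.82 and 6.3 in LSD (2.29-fold), and Cyp9f2 had 68.1, 99.2 and 55.2 in HSD at 4 h, against 23.4, 39.7, 26.5 and 42.9 in LSD (2.22-fold). Cyp28d1 fell, at 51.7, 39.2 and 37 in HSD at 4 h, against 74.3, 99.2, 72.2 and 95.6 in LSD. Of 42 tested glutathione and glucuronosyl transferase genes 11 rose and 2 fell (median 0.12), 7 rose in the fit of only the 7 libraries, and none reached 2-fold; GstT4 came closest at 1.97-fold. Many of these genes stand in tandem clusters of like sequence, so reads may be split among them.

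Few immune genes were called, and 4 chaperone genes fell. Of 23 antimicrobial peptide and immune effector genes 0 rose and 2 fell, both of the Turandot stress family. TotA had 0.445, 0.704 and 0.18 in HSD at 4 h, against 2.03, 2.76, 13.1 and 4.6 in LSD. The HSD values were low, with replicate 4 at the level of 3 reads, and the size of the difference moved from log2 -3.15 to -1.94 with the pseudocount. Of 13 heat shock genes 4 fell and 0 rose: Hsp83, Hsc70-4, Hsp60 and Hop, constitutive chaperone and co-chaperone genes, by 1.36-fold to 1.64-fold. The summed level of the heat shock list was 5088 to 5360 in HSD at 4 h, against 6195 to 8532 in LSD. Hsc70-4 had 2344, 2279 and 2191 in HSD at 4 h, against 3064, 3843, 3005 and 3224 in LSD. The small heat shock genes Hsp23, Hsp26 and Hsp27 were not called.

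Genes with no assigned pathway were among the largest rises. CG1774 (FBgn0039856, 3R 31592803 to 31594719) had 404, 391 and 368 in HSD at 4 h, against 33.9, 43.6, 25.2 and 36.6 in LSD, an 11.2-fold difference (log2 3.48, SE 0.13, adjusted p = 8.49e-09, limma). The annotated antisense RNA CR45190, opposite CG1635, had 8.35, 9.11 and 4.75 in HSD at 4 h, against 0.156, 0.301, 0 and 0.363 in LSD. Without the strand setting its reads cannot be told apart from those of the gene opposite. CR45190 passed the filter on low values through the HSD libraries alone, as every LSD value was below 1. CG10182 had 88.2, 163 and 81.3 in HSD at 4 h, against 10.7, 15, 5.67 and 33.6 in LSD (7.68-fold), and CG4269, CG6067, CG12057, Npc2c, CG14205 and CG7142 rose 5.38-fold to 9.37-fold. Npc2c belongs to the sterol-binding Npc2 family. CG14205 was at 89.1, 157 and 93.5 in HSD at 4 h, against 4.53, 41, 9.96 and 68.9 in LSD, and its call ended without HSD 4 h replicate 3 (adjusted p = 0.0734, limma) and with only the 7 libraries in the fit (0.0994). CG13315, at 439, 462 and 378 in HSD at 4 h, against 94.5, 130, 112 and 92.3 in LSD, and Drat, at 398, 290 and 313 in HSD at 4 h, against 105, 95.9, 94.9 and 117 in LSD, were chosen after their values were seen.

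The genes with the largest falls were mostly at low or moderate levels. CG13560 had 0.334, 0.497 and 0.961 in HSD at 4 h, against 4.18, 5.68, 3.18 and 14 in LSD (5.87-fold lower, adjusted p = 0.000386, limma), and the log2 difference ranged from -3.16 to -2.11 with the pseudocount. CG4563 had 24.2, 31.1 and 10.3 in HSD at 4 h, against 135, 149, 88.9 and 74.4 in LSD (5.31-fold lower), and lectin-24A, a sugar-binding protein gene, had 15.8, 10.1 and 17.8 in HSD at 4 h, against 45.8, 64.7, 86.3 and 78.1 in LSD (4.58-fold lower). CG10026 had 1.78, 1.49 and 1.74 in HSD at 4 h, against 8.2, 15.2, 10.8 and 8.42 in LSD. The genes CG4830, CG14143, nol, CG11425 and CG5955 (Tdh, threonine dehydrogenase) were 3.36-fold to 3.87-fold lower. Among abundant genes the reductase gene Cyt-b5-r (FBgn0000406, 2L 16788774 to 16790721) had 203, 235 and 185 in HSD at 4 h, against 603, 784, 600 and 670 in LSD (3.19-fold lower, adjusted p = 1.53e-06, limma). CG9521 and the cuticle gene Cpr67Fa1 moved with the cuticle-rich libraries. CG9521 had 18.2, 10.8 and 12.2 in HSD at 4 h, against 31.8, 126, 162 and 30.6 in LSD, and Cpr67Fa1 had 7.84, 8.78 and 2.52 in HSD at 4 h, against 14, 44.7, 34.7 and 13.9 in LSD. Without LSD replicates 2 and 3 their adjusted p-values were 0.1 and 0.167 (limma), so both calls ended. CG14143 and the abundant gene CG11300 were not called without those libraries either (0.12 and 0.0679), with log2 differences of -1.54 and -1.50 there, against -1.95 and -1.55 as reported. CG11300 had 85.6, 53 and 92.8 in HSD at 4 h, against 243, 179, 292 and 186 in LSD, so it was not highest in both of those libraries.

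Stage and tissue markers were read beside these results. Of 46 tested cuticle and molting genes 1 rose and 1 fell, with a median log2 difference of -0.57 and a summed level of 9397 to 12672 in HSD at 4 h, against 11224 to 20198 in LSD. The gene that rose, Lcp3, a larval cuticle protein gene, had 6.56, 11.9 and 7.75 in HSD at 4 h, against 0.0781, 0, 0.318 and 0.121 in LSD, so LSD was near the level of 3 reads and the log2 difference ranged from 3.08 to 5.41 with the pseudocount. Lcp3 passed the filter on low values through the HSD libraries alone, and it was also called without that filter. Of 25 ecdysone response genes 1 rose (Eip71CD) and 1 fell (phm, a step of ecdysone synthesis, 1.33-fold lower). The part of molt stage in the other results was not tested beyond the counts without LSD replicates 2 and 3.

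Few markers of the tissues in a larva were called. The fat body markers Lsp1alpha and Lsp2 and the salivary gland marker Sgs3 had no values. The summed level of 15 muscle markers was 47282 to 52778 in HSD at 4 h, against 46086 to 55210 in LSD, and 1 of them (Act87E) was called higher. Of 16 neuron markers 1 fell (elav, 61.7, 63.6 and 67.2 in HSD at 4 h, against 85.4, 80.1, 84.4 and 79.1 in LSD), and their sum was 1490 to 1644 in HSD at 4 h, against 1635 to 1947 in LSD. Of 13 hemocyte markers 1 was called, Ance (log2 0.61). It was not called without LSD replicates 2 and 3 (log2 0.42, adjusted p = 0.0914, limma). The hemocyte sums were 5015 to 6229 in HSD at 4 h, against 4543 to 7827 in LSD. The hemocyte list median varied within HSD at 4 h, at -0.04, 0.48 and -0.71 (log2, relative to the LSD mean of each gene), against -0.09 to 0.26 in LSD. Of 3 fat body markers the 1 that was called is Lsd-1, itself a lipid storage gene; the apolipoprotein gene Rfabg was at 3280, 4007 and 3324 in HSD at 4 h, against 3456, 6029, 3105 and 3508 in LSD. Of 3 salivary gland transcription factor genes 0 were called by limma. The germline genes nos and vas, among 4 germline and testis markers, rose 2.25-fold and 1.93-fold at low levels: nos had 3.06, 2.73 and 2.58 in HSD at 4 h, against 1.29, 1.41, 0.53 and 0.787 in LSD, and the vas groups overlapped. The other 2 markers, bol and twe, were not called (log2 -0.18 and 0.12), and the summed level of all 4 was 59.9 to 64.3 in HSD at 4 h, against 57.7 to 69.9 in LSD. The call of vas ended in 6 alternatives (adjusted p 0.00619 to 0.104 over all of them, limma), among them the fit of only the 7 libraries (0.0644). RpS5b and RpS19b moved with these germline genes, and the part of germline content in their rise was not tested.

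The HSD libraries at 8 h showed which of these levels differed between 4 h and 8 h of HSD. Cuticle transcripts differed between these libraries too. TwdlJ was at 35.9, 15.8 and 42.4 in HSD at 8 h, against 0.89, 0.414 and 0 at 4 h. Of the 46 cuticle and molting genes 3 were higher and 0 lower at 8 h than at 4 h (median log2 difference 0.76). The part of molt stage in the results below was not tested. Between HSD at 8 h and HSD at 4 h 902 of the 9987 genes differed, 9.03% (453 higher, 4.54%, and 449 lower, 4.50%). This comparison shares the HSD 4 h libraries with the one above, so values are given side by side. That count fell by over 1.5 times when 1 of 5 libraries was left out: it was 343 without HSD 4 h replicate 1 and 325 without replicate 4, and 310, 366 and 449 without HSD 8 h replicates 2, 3 and 4. With array weights it was 1762. The genes below were named for their pattern over both comparisons, with levels for LSD, then HSD at 4 h, then HSD at 8 h. LSD was sampled at 8 h only, so its level is not a starting value and this order is not a course in time.

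Some genes were lower in HSD at 4 h than in both LSD and HSD at 8 h. Cyt-b5-r averaged 664 in LSD, 208 in HSD at 4 h and 614 in HSD at 8 h (8 h minus 4 h log2 1.56, adjusted p = 0.000231, limma). Bace, an aspartic protease gene, averaged 32.5 in LSD, 10.1 in HSD at 4 h and 63.4 in HSD at 8 h. CG4563 averaged 112 in LSD, 21.9 in HSD at 4 h and 60.5 in HSD at 8 h, and the esterase gene alpha-Est8 averaged 23.7 in LSD, 7.56 in HSD at 4 h and 16.7 in HSD at 8 h. At 8 h the mean of Bace was above its LSD mean, and the means of the other 3 genes were below theirs. Of the 32 nucleolar genes 11 were higher and 2 lower at 8 h than at 4 h: Nop56 averaged 197 in LSD, 72 in HSD at 4 h and 109 in HSD at 8 h, while the histone chaperone gene Nph averaged 154 in LSD, 91.5 in HSD at 4 h and 72 in HSD at 8 h. All 3 HSD 8 h libraries remained below all LSD libraries in Nop56.

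Other genes were higher in HSD at 4 h than in both LSD and HSD at 8 h. CG13946 averaged 4.31 in LSD, 22.4 in HSD at 4 h and 8.62 in HSD at 8 h, and CG11892 averaged 33.9 in LSD, 143 in HSD at 4 h and 83.3 in HSD at 8 h. The long noncoding RNA CR43459, whose position holds the microRNA genes mir-277 and mir-34, averaged 10.0 in LSD, 28.9 in HSD at 4 h and 15.1 in HSD at 8 h (8 h minus 4 h log2 -0.91, adjusted p = 0.00572, limma). Atg8a, of the autophagosome membrane, averaged 118 in LSD, 291 in HSD at 4 h and 173 in HSD at 8 h. REPTOR-BP averaged 10.0 in LSD, 27.1 in HSD at 4 h and 15.8 in HSD at 8 h. Ilp6 averaged 16.4 in LSD, 24.3 in HSD at 4 h and 11.5 in HSD at 8 h, below its LSD mean. Cyp4ad1, a P450 gene outside the tested P450 list, averaged 11.6 in LSD, 37.9 in HSD at 4 h and 20.5 in HSD at 8 h.

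In a further set HSD at 8 h lay further from LSD than HSD at 4 h did, in the same direction. Gpo-1 averaged 262 in LSD, 618 in HSD at 4 h and 1024 in HSD at 8 h (8 h minus 4 h log2 0.73, adjusted p = 0.000534, limma), and Gpdh averaged 700 in LSD, 1688 in HSD at 4 h and 2507 in HSD at 8 h. Desat1 averaged 356 in LSD, 1251 in HSD at 4 h and 1692 in HSD at 8 h. The NADPH-producing malic enzyme gene Men averaged 886 in LSD, 1357 in HSD at 4 h and 2158 in HSD at 8 h, and the sensor gene Mondo averaged 127 in LSD, 189 in HSD at 4 h and 268 in HSD at 8 h. The serine synthesis gene aay averaged 90.2 in LSD, 180 in HSD at 4 h and 269 in HSD at 8 h. All 3 HSD 8 h libraries were above all HSD 4 h libraries in each of these genes. Downward, Sardh averaged 50 in LSD, 17.8 in HSD at 4 h and 6.21 in HSD at 8 h, and the odorant-binding protein gene Obp99a averaged 153 in LSD, 66.4 in HSD at 4 h and 34.3 in HSD at 8 h. CG13962 averaged 37.6 in LSD, 13.5 in HSD at 4 h and 9.46 in HSD at 8 h. Not called between 8 h and 4 h were sug (log2 0.22), cbt (0.15), Pgd (0.06), Zw (-0.06) and FASN1 (0.46, adjusted p = 0.103, limma). FASN1 nonetheless had 5044, 4136 and 4425 in HSD at 8 h, against 3053, 3973 and 2939 in HSD at 4 h, without overlap.

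**Figure D5:**
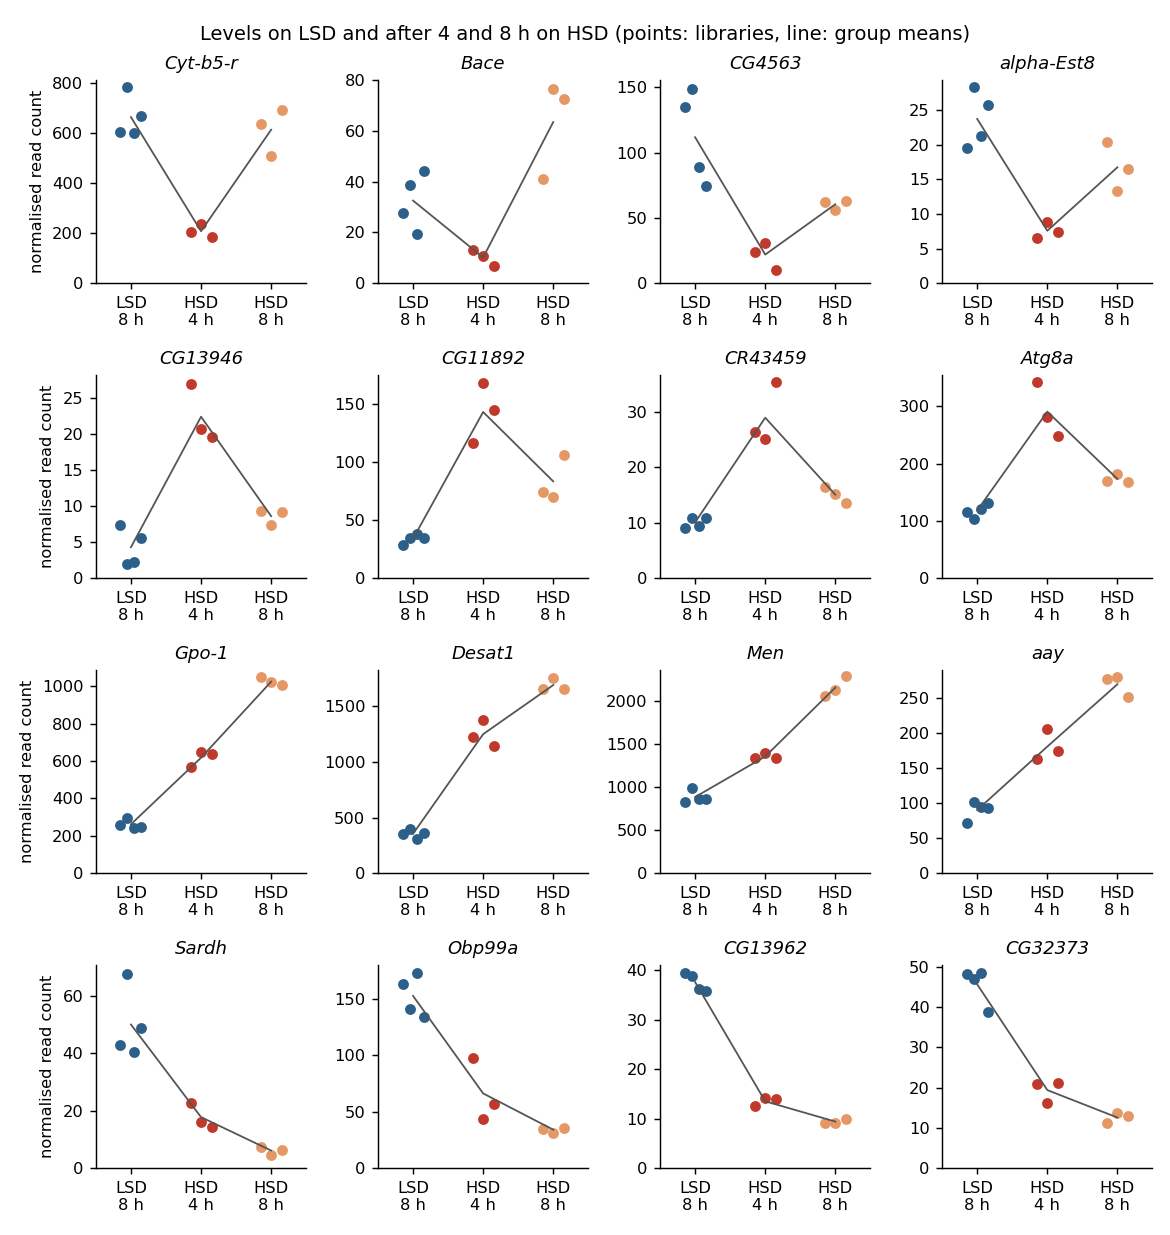
Normalised read counts of 16 genes in LSD at 8 h (blue, n = 4), HSD at 4 h (red, n = 3) and HSD at 8 h (orange, n = 3), with points for libraries, a line through the group means and axes from 0. In the first row the mean of HSD at 4 h is below both other means (Cyt-b5-r at 208, against 664 in LSD and 614 in HSD at 8 h). It is above both in the second row and between them in the lower 2 rows. LSD was sampled at 8 h only, so the line from LSD is not a course in time. The genes were chosen for these patterns.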

How the data were processed

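RNA of whole larvae depleted of ribosomal RNA was sequenced as stranded 75 bp single-end libraries, per the labels' protocols. The tools named for the authors' steps are Trimmomatic, TopHat2 2.1.0, HTSeq and limma, per the submitters' processing notes. For genome build, annotation, strand setting and gene filter, the sources used here give nothing. The authors deposited 1 table of 10128 genes whose per-library values, a normalised signal, are counted reads over the effective size of each library. All values were whole multiples of 1 read within 0.01 read. Column sums ran from 987285 to 1057248, so the values were not treated as CPM, which the planned test had assumed. The authors' deposited log2 fold changes, score statistics and p-values, per the file headers, were not used.

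Genes at 1 or more in at least 3 of the 7 libraries (9987; 141 left out) were tested with limma 3.58.1 in R 4.3.3 on log2(value + 0.5), with 4 group means over 14 libraries (10 residual degrees of freedom), a variance trend and two-sided p-values. On simulated data for this comparison with 9987 genes, it recovered 0% of 50 genes changed 1.3-fold, 34% at 1.5-fold, 98% at 2-fold and 100% at 4-fold, with 8 false calls. Each size had 50 changed genes and all other genes were unchanged. Far fewer genes were thus changed than the 2450 called in the data, which makes the adjusted threshold stricter there. The simulated spread was set by the level of a gene alone, and no shift was shared by the genes of a library. These percentages and the false calls therefore do not give the recovery or the error in the data. A gene could pass the filter through a single group, as Lcp3 and CR45190 did through HSD and CG13560 and TotA through LSD. Members, lists and alternatives were chosen with earlier results of these data known. After values were seen 3 wrong entries were dropped from the lists, 3 lists were renamed and 12 families were added by symbol (Atg, Nup, synthetases, small nucleolar RNAs and hosts, ribosomal proteins, polymerases, translation factors, proteasome, V-ATPase, respiratory chain). Named genes were 6 regulators, the 12 largest rises and falls without overlap (higher mean at least 5), 3 genes per list, and the 5 largest with a mean of at least 100. Also named were genes called between HSD at 8 h and 4 h against (8) or along (5) the direction of their difference from LSD. Other genes cited were chosen after their values were seen. Positions are from BDGP6.54 by gene identifier. Alternatives included edgeR 4.0.16 (quasi-likelihood test) on the recovered read counts.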

Additional observations from a re-analysis of the deposited data

Results flagged for a closer look

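In LSD, 6 named genes had 1 library far from the other 3, by the gap to the nearest library against the range of the group; chance flags about 1 in 20 groups. These were bigmax (17.8), Thor (274) and nop5 (192) in replicate 4, AGBE (87.2) in replicate 1, CG8036 (633) in replicate 2 and CG6484 (2.75) in replicate 3. Each of these libraries still lay on the LSD side of all HSD 4 h libraries.

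The level on HSD differed between 8 h and 4 h in 42 named genes that were also called at 4 h. Some of these genes were named for that pattern, so their count is not a share to compare with the 9.03% of all genes tested. The values given are HSD 8 h minus HSD 4 h, as log2 and tested with limma over all genes, and the LSD libraries do not enter them. Among genes higher at 4 h, those higher still at 8 h were Mondo (0.51), CG1774 (0.53), Gpo-1 (0.73), Gpdh (0.57), AcCoAS (0.45), Desat1 (0.44), aay (0.58), GstT4 (0.57), GstE7 (0.81), CG32444 (0.96) and CG14196 (0.54). Those higher at 4 h and lower at 8 h than at 4 h were CG6067 (-1.43), CG13946 (-1.32), CG11892 (-0.78), CG33225 (-1.92), Cyp4ad1 (-0.87), CR44138 (-2.05), CR43459 (-0.91), REPTOR-BP (-0.73), Rheb (-0.35) and Gs1 (-0.29).

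Among genes lower at 4 h, those higher at 8 h than at 4 h were CG4563 (1.58), CG9521 (2.63), CG11425 (1.32), Cyt-b5-r (1.56), Bace (2.58), CR42491 (0.84), alpha-Est8 (1.08), CG10924 (1.37), TotC (1.32), phm (0.54), Hsp60 (0.44), RnrS (0.45), nop5 (0.38), wcd (0.40) and NHP2 (0.48). Those lower still at 8 h were CG15369 (-1.55), Sardh (-1.44), Obp99a (-0.86), CG32373 (-0.60), CG13962 (-0.49) and GstD3 (-0.36). CG9521 varied within LSD, at 126 and 162 in replicates 2 and 3, the LSD libraries with high TwdlJ, and at 31.8 and 30.6 in the other 2. In HSD at 8 h, where TwdlJ was also high, CG9521 was at 94.6, 50.2 and 130.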

How the results depend on the processing

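With the fit limited to the 7 libraries, 643 genes were higher, against 1293 as reported. Genes that differed between HSD at 8 h and 4 h, 902 as reported, numbered 1762 with array weights, 145 with a replicate block and 310 to 893 when each HSD library was left out in turn; 5 of those 6 libraries moved the count by over 1.5 times. The cause was not tested. Over the leave-one-out fits 881 to 1374 genes were higher and 925 to 1208 lower. EdgeR called 1304 higher and 1144 lower, 2404 of them also called in the same direction by limma. Without LSD replicates 2 and 3 there were 1129 and 1055. Deviations from the group means of same-numbered HSD 4 h and LSD libraries correlated at -0.139, -0.386 and 0.0238. Of 3 HSD 4 h libraries, 0 correlated best with their own number. These few correlations cannot settle whether the replicate numbers pair the libraries, and pairing of HSD 4 h with HSD 8 h libraries was not tested. The replicate block gave 1016 higher and 966 lower genes, with 3 of 85 ribosomal protein and 3 of 56 respiratory chain genes higher. Of 108 named genes 93 kept call and direction in every one of the 19 alternatives that tested them, and 0 reversed. The minimum of 5 in at least 3 libraries tested 101 of the 108. It left out CR45190, CG13560, TotA, nol, CG31089, nos and vas. Low genes are limited by depth, 3 reads being 0.117 to 0.182.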
